A study of Mus musculus with 3 samples.

Results

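The genes described here are the 186 microRNA genes that a mouse expression array read clearly in cultured sensory neurons. They were taken from 599 microRNA genes whose probe sets carry a single gene symbol in the platform annotation, which is 31.1% of them. A gene was kept when its symbol began with Mir and a digit, or with Mirlet, and when the mean of log2(intensity + 1) over the 3 arrays was at least 6.5. Where a gene had several probe sets, the brightest was used. The genes were thus chosen by their measured brightness, so their levels are a description and not a result. They are 1.39% of the 13365 genes of any kind that reach the same limit, out of 30142 genes with a single symbol.

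The cells were primary neurons of the dorsal root ganglion, the cluster of sensory nerve cells beside the spinal cord, taken from male ICR mice of 8 to 10 weeks. All cultures were kept for 72 hours in DMEM with the B27 supplement. The control medium had nothing more, the SEMA3E medium had recombinant SEMA3E at 1 µg/ml, and the medium labelled high-level blocking containing had the same SEMA3E together with a SEMA3E-blocking IgG at 1 µg/ml. SEMA3E is a secreted semaphorin, a family of proteins known for steering axons, and the blocking medium is called the SEMA3E + IgG medium here. ICR is an outbred strain, the cells were dissociated and grown outside the animal, and the sources used here do not say how many animals went into a culture. Each medium has 1 array, so there is no replicate, no error and no test for any difference given here, and whether the media overlap cannot be judged.

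A microRNA is a short RNA that pairs, mainly through the seed near its 5′ end, with sites in messenger RNAs and lowers their output. It is cut from a hairpin within a longer primary transcript, first by Drosha and Dgcr8 in the nucleus and then by Dicer1 in the cytoplasm, and works bound to an Argonaute protein. Many microRNA genes lie inside the introns of other genes and others lie in runs that share a primary transcript, so an array that reads total RNA may read the mature strand, the hairpin, the primary transcript or the host transcript. These sources cannot be told apart here, and a value below is a probe set's value, not the amount of mature microRNA.

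RefSeq's microRNA table (GRCm38.p6) held 134 of the 186 genes, 116 of them with a hairpin sequence, and 52 were not matched. The mature sequences below belong to the 9 genes that were at least 1.5-fold apart between any 2 media and whose probe set is named for the chromosome on which RefSeq places the gene. Capitals mark the seed, bases 2 to 8 from the 5′ end.
mmu-miR-181b-5p: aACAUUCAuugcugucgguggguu
mmu-miR-30c-5p: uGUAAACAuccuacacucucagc
mmu-miR-30c-2-3p: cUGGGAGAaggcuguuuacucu
mmu-miR-721: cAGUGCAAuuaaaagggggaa
mmu-miR-691: aUUCCUGAagagaggcagaaaa
mmu-miR-340-5p: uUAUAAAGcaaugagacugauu
mmu-miR-376a-3p: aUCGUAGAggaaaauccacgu
mmu-miR-154-5p: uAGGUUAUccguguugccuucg
mmu-miR-3058-5p: uCAGCCACggcuuaccuggaaga
mmu-miR-539-5p: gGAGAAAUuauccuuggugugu
No seed is shared between different genes among these 9. The strand miR-340-5p lies at chr11:50069720-50069741 on the plus strand, miR-181b-5p of Mir181b-2 at chr2:38853845-38853868 on the plus strand, and miR-30c-5p of Mir30c-2 at chr1:23291714-23291736 on the plus strand. The strands miR-376a-3p (chr12:109723824-109723844), miR-539-5p (chr12:109728136-109728157) and miR-154-5p (chr12:109738438-109738459) follow one another on the plus strand of chromosome 12.

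A further set shows relatives that share a seed, since these pairs are compared with the genes above or with each other below.
mmu-miR-181d-5p: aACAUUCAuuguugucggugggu
mmu-miR-30c-1-3p: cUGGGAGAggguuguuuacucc
mmu-let-7b-5p: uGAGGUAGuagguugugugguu
mmu-let-7d-5p: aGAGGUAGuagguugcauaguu
mmu-miR-98-5p: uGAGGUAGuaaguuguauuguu
mmu-miR-138-5p: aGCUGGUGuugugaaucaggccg
The last set is of simple or repeated sequence, because 44 of the 186 genes have names of this kind (Mir297, Mir466, Mir467 and Mir669) and because several of the brightest probe sets carry names whose sequence recurs in the genome.
mmu-miR-466k: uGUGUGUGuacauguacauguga
mmu-miR-466j: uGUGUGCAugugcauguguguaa
mmu-miR-467h: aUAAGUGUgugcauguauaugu
mmu-miR-669n: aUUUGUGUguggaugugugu
mmu-miR-3473a: uGGAGAGAuggcucagca
mmu-miR-3470b: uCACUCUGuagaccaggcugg
The first 4 of these hold runs of alternating U and G.

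The array medians were 44.5 in the control medium, 45 in the SEMA3E medium and 44.5 in the SEMA3E + IgG medium, in deposited intensity units. A background floor of 5.48 was taken as the 95th percentile of the log2 means of 492 vomeronasal receptor genes, which are pheromone receptors of the nose. No member had an array under this floor, and 9 had an array under 6.5. Member means ran from 6.51 to 18.19 with a median of 7.85. The members just inside the limit were Mir297a-4 (6.51), Mir1960 (6.51) and Mir679 (6.52), and the genes just outside were Mir7210 (6.48), Mir450-2 (6.48) and Mir30b (6.46). Of the sensory neuron markers, 15 of 15 were at or above the floor, with means from 6.24 to 17.65. The floor is 43.7 units, below the median of each array, so reaching it does not by itself show a cell type. Markers of other cells of the ganglion reached the floor as well: 4 of 4 measured Schwann cell, 4 of 4 satellite glia, 5 of 5 fibroblast, 5 of 6 macrophage, 4 of 4 mural and 4 of 4 endothelial genes. Means ran from 7.88 to 17.00 for the Schwann cell, 7.61 to 11.87 for the satellite glia and 7.44 to 13.13 for the fibroblast genes. They ran from 4.97 to 11.19 for the macrophage and 6.21 to 12.90 for the mural genes. The endothelial genes had means from 5.66 to 6.495, all under 6.5. In such mixed RNA, fewer cells of a type and less RNA per cell cannot be told apart.

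Exact ties between arrays were counted first, because they show how often the deposited values differ at all. The 3 arrays gave exactly the same value for 69 of the 186 members (37.1%), against 72.1% of all 13365 genes. In the band of means from 6.5 to 7, 42.9% of 49 members were identical against 85.0% of all genes, and from 8 to 10 the shares were 30.4% of 46 members against 76.0%. Above 14 none of the 17 members was identical, against 40.2% of all genes. An identical value does not show equal RNA, since the authors' summary may hide small differences.

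In the SEMA3E medium against control, 12 members were at least 1.5-fold apart, 7 higher and 5 lower, where 0.18% of all genes were, 0.0898% in each direction. These 12 are among the 24 genes of any kind that far apart. At 2-fold there were 2 members, Mir181b-2 and Mir8115, against 0.0299% of all genes. Mir181b-2 is a member only through its brighter arrays, and the Mir8115 probe set is named for another chromosome than RefSeq's, as described below. Counting any difference, 70 members were higher, 29 lower and 87 identical, where 5.64% of all genes were higher and 14.8% lower. The median difference was 0 on the log2 scale for members and for all genes, and the mean difference was 0.045 for members against -0.0066 for all genes. Among members that differed at all, the median size was 0.17, against 0.054 over all genes. Of 41 cell type markers at or above the floor, 3 were higher, 13 lower and 25 identical in the same comparison, with none 1.5-fold apart, and the part of cell makeup in the microRNA counts was not tested.

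Adding the IgG to SEMA3E gave 6 members at least 1.5-fold apart, 3 higher and 3 lower, where 0.15% of all genes were, 0.0748% higher and 0.0748% lower, and none at 2-fold, where 0.00748% of all genes were. The members were 30.0% of the 20 genes that far apart. With any difference counted, 39 were higher, 61 lower and 86 identical, where 11.8% of all genes were higher and 11.1% lower. Between SEMA3E + IgG and control, 5 members were 1.5-fold apart, 3 higher and 2 lower, where 0.21% of all genes were, 0.0449% higher and 0.165% lower. At 2-fold there was 1 member, Mir340, where 0.015% of all genes were. Here 65 were higher, 31 lower and 90 identical, where 8.22% of all genes were higher and 13.3% lower. The 3 comparisons share arrays, so a gene that is high on 1 array is high in 2 of them, and their counts are given side by side only. In all, 14 members (7.53%) were 1.5-fold apart in at least 1 comparison, against 0.367% of all genes.

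**Figure D1:**
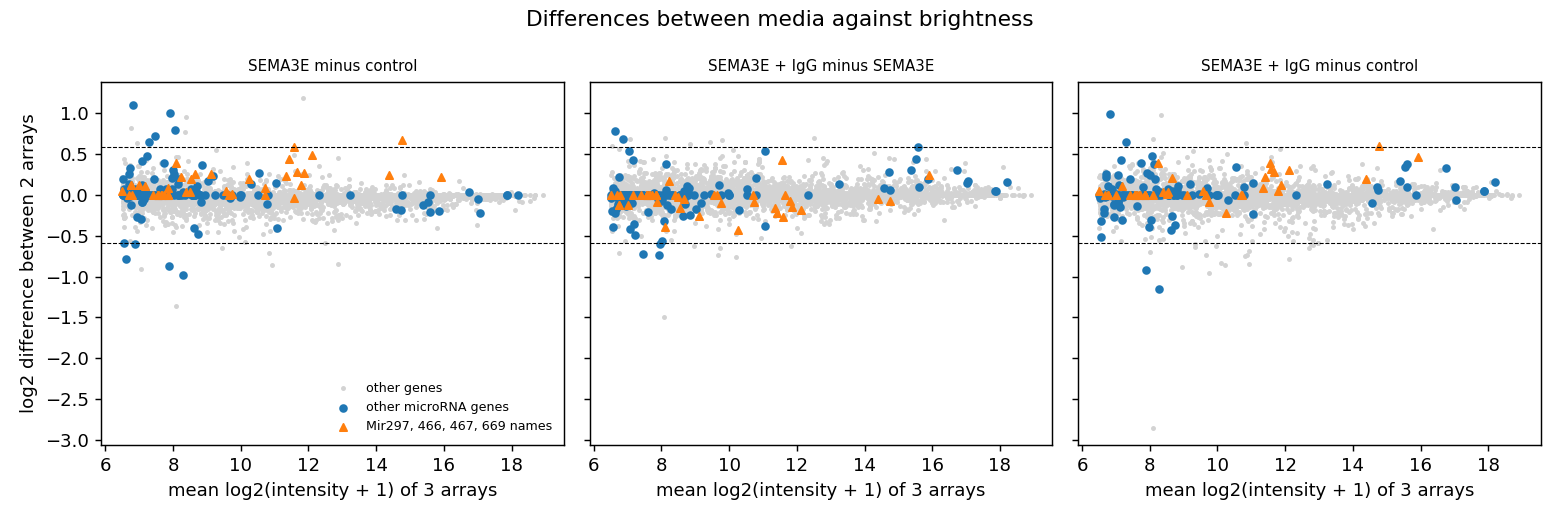
Log2 difference between 2 arrays (vertical) against the mean log2(intensity + 1) of the 3 arrays (horizontal) in the 3 comparisons. Grey points are the other genes with a mean of at least 6.5, orange triangles the 44 members with Mir297, Mir466, Mir467 or Mir669 names, blue points the other 142 members, and dashed lines mark 1.5-fold. In SEMA3E minus control, 12 members lie on or beyond the dashed lines.

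Of the 14, 4 had an array under the limit of 6.5 and are members only through their brighter arrays: Mir181b-2 in control, Mir376a and Mir154 with SEMA3E, and Mir3058 in both SEMA3E media. For these a difference between media is in part built into the choice of genes. Mir181b-2 and Mir30c-2 had their lowest value in the control medium. Mir181b-2, a gene for miR-181b, a microRNA best known from lymphocyte development, read 6.12 in control, 7.22 with SEMA3E and 7.11 with SEMA3E + IgG on the log2 scale, or 68.5, 148 and 137 intensity units. Both SEMA3E-containing media were higher, by 1.1 and 0.99. Mir30c-2 read 7.64, 8.44 and 8.12, or 198, 345 and 277 units, so it was 0.80 higher with SEMA3E and 0.48 higher with SEMA3E + IgG. Mir691 read 6.85, 7.50 and 7.50, or 115, 181 and 181 units. It was 0.65 higher in both SEMA3E media, whose values were identical.

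Mir721 was high in the SEMA3E medium alone. It read 7.22, 7.94 and 7.22, or 148, 245 and 148 units, a difference of 0.72 with SEMA3E and of -0.72 once IgG was present. Its value with SEMA3E + IgG was identical to control. Mir539 differed most in the SEMA3E + IgG medium, with 8.03, 8.24 and 7.64, or 261, 302 and 199 units. It was 0.21 above control with SEMA3E and differed by -0.60 with IgG from SEMA3E alone.

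Mir340 had the widest downward difference of the 9. It read 9.00 in control, 8.01 with SEMA3E and 7.84 with SEMA3E + IgG, or 510, 257 and 228 units. Both SEMA3E media lay below control, by -0.98 and -1.15. Mir3058 was also highest in control, with 6.93, 6.34 and 6.42, or 121, 79.9 and 84.7 units. It was -0.59 and -0.51 from control, close to the limit that admits it.

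Mir376a and Mir154 were low in the SEMA3E medium alone. Mir376a read 6.88, 6.10 and 6.88, or 117, 67.4 and 117 units, a difference of -0.78 with SEMA3E and 0.78 with IgG. Mir154 read 7.05, 6.44 and 7.13, or 131, 86.0 and 139 units, a difference of -0.61 and then 0.68. Both belong to the large microRNA run of the imprinted Dlk1-Dio3 region, which is expressed from the maternal chromosome.

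**Figure D2:**
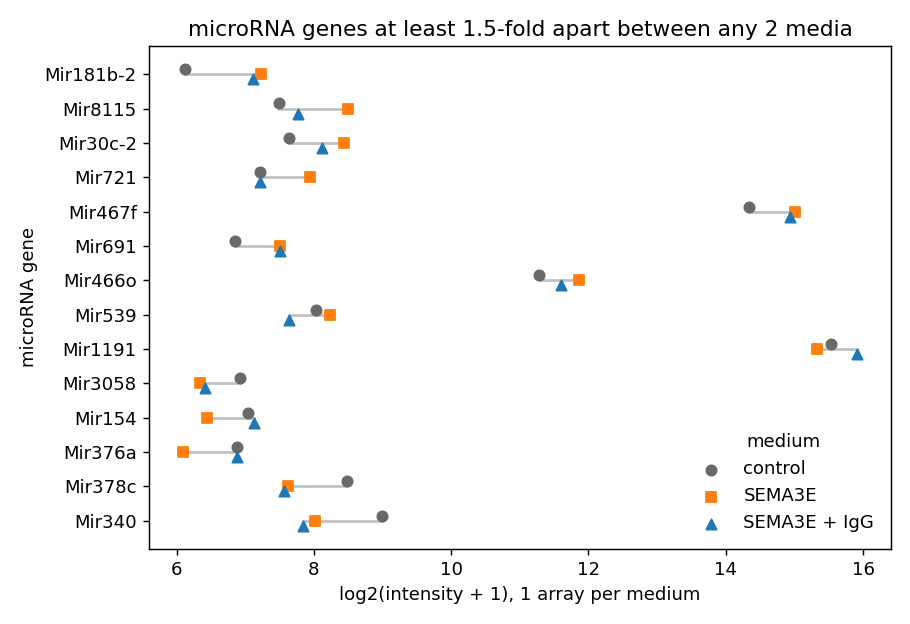
Values of the 14 microRNA genes at least 1.5-fold apart between any 2 media, as log2(intensity + 1), with 1 array per medium and no error bars. Circles are control, squares SEMA3E and triangles SEMA3E + IgG, joined by a grey line over the range of the 3. Mir181b-2 reads 6.12 in control against 7.22 and 7.11, and Mir340 reads 9.00 against 8.01 and 7.84.

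For the other 5 of the 14 genes the name on the probe set is less secure. In 119 of the 134 matched members the first 2 digits of the probe set's name equal the RefSeq chromosome of the gene, which is why these digits were read as a chromosome. In 12 they name another chromosome and in 3 the probe set is unmapped. Mir8115, Mir378c, Mir467f and Mir1191 are among the 12, and Mir466o is not in the table. Mir8115 read 7.49, 8.49 and 7.76, so it was 1.00 higher with SEMA3E than control and differed by -0.73 once IgG was added. Mir378c read 8.49, 7.62 and 7.57, which is -0.86 and -0.92 from control. Mir466o read 11.28, 11.87 and 11.60, a difference of 0.59 with SEMA3E and 0.32 with SEMA3E + IgG.

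Mir467f read 14.34, 15.02 and 14.94, or 0.68 and 0.60 above control. Its second probe set, the one named for its RefSeq chromosome, had a mean of 9.81 and differed by only 0.02 and 0.00 in these comparisons. Mir1191 read 15.53, 15.32 and 15.91, or -0.20 with SEMA3E and 0.59 on adding IgG. For these 5 genes the values belong to the probe set, and the RNA it reads is not settled.

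Members were next grouped by the seed they share. By bases 2 to 8, 22 members fell into families of at least 2. Mir181d, whose seed ACAUUCA is that of Mir181b-2, read 8.58 on all 3 arrays. Mir30c-1, which makes the same miR-30c-5p as Mir30c-2, read 9.75 on all 3. In each of these pairs 1 gene was at least 1.5-fold apart with SEMA3E and the other had the same value on every array.

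Among the let-7 relatives, whose microRNAs are known for restraining growth and cell cycle genes, Mirlet7b read 7.14, 7.05 and 7.05. Mirlet7d read 8.35 and Mir98 read 6.69, each on all 3 arrays. Mirlet7b and Mir98 also share the seed UAUACAA of their 3p strands. In the pair with seed GGCAGUG, of the p53-responsive miR-34 family, Mir34a read 6.74 on all arrays and Mir34b read 7.95, 8.02 and 7.95.

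Mir138-1 and Mir138-2 make the same miR-138-5p, a microRNA of neurons known for effects on dendritic spines and axon growth. Mir138-1 read 6.75 on all 3 arrays. Mir138-2 read 11.15, 10.75 and 11.29, so it was lowest with SEMA3E, by -0.40 from control, and 0.54 higher on adding IgG. The 2 loci lie on different chromosomes, and their probe sets did not differ alike.

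The 3 genes of miR-680 (seed GGCAUCU) also differed among themselves. Mir680-1 read 6.65, 6.61 and 6.66, Mir680-2 read 6.53, 6.79 and 6.79, and Mir680-3, one of the genes named for another chromosome, read 8.55 on all arrays. Each of these genes has 2 probe sets, and the values above are of the brighter one. The dimmer one of Mir680-3, named for its RefSeq chromosome, read 7.98, 8.09 and 8.17, lowest in control. That of Mir680-2 read 6.34 on all arrays. That of Mir680-1 was identical in the control and SEMA3E media and 0.02 higher with SEMA3E + IgG. In the pair with seed CACUGAG, Mir674 read 7.06, 6.77 and 7.31 and Mir3473d read 8.64, 8.64 and 8.70. Mir495 and Mir1192 share the seed AACAAAC, and Mir1192 read 8.22 throughout. Mir188 (7.46 throughout) shares AUCCCUU with Mir7061 (6.71, 6.71 and 6.54), and Mir221 (6.59) shares GCUACAU with Mir1928 (6.73), both identical on all arrays.

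Neighbouring genes were compared next, taking genes on 1 strand with gaps of at most 10000 bases. This placed 19 members in 4 clusters, and the same 19 were found with gaps of at most 50000 bases. The largest lies on the plus strand of chromosome 12, within the imprinted region named above, with 12 members of 38 genes in the table, 26 of which have a measured probe set. With SEMA3E, 1 of the 12 was higher than control, 5 were lower and 6 were identical, where 5.64% of all genes were higher and 14.8% lower. On adding IgG, 6 were higher, 3 lower and 3 identical, where 11.8% of all genes were higher and 11.1% lower.

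Besides Mir376a and Mir154, the lower members with SEMA3E were Mir544 (10.79, 10.68 and 10.88), Mir329 (9.67, 9.64 and 9.76) and Mir453 (9.97, 9.95 and 9.97). These 3 differences were small, from -0.11 to -0.02, and all 5 genes were higher again with IgG. Mir539 went the other way in both comparisons. Mir495 read 7.01, 7.01 and 7.44, Mir654 read 6.98, 6.98 and 6.86, and Mir679 read 6.53, 6.53 and 6.49. Mir494 (9.25), Mir667 (8.80) and Mir758 (7.30) were identical on all arrays, so the run did not differ as 1 unit.

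Of the 14 measured cluster neighbours outside the 186 genes, 2 were higher with SEMA3E than control, 5 were lower and 7 were identical. Only Mir376b (5.73), Mir411 (5.50) and Mir541 (5.49) had a mean above the floor of 5.48. No share over genes as dim was counted, so this tally is a description of mostly background values. The SEMA3E medium was the lowest of the 3 for Mir376b, Mir379 and Mir411, and the highest for Mir541 (5.40, 5.66 and 5.40) and Mir543 (5.36, 5.39 and 5.36). Mir376b read 6.32, 4.71 and 6.16, with its SEMA3E value below the floor. Mir411 read 5.76, 5.16 and 5.57, and Mir379 read 5.49, 5.21 and 5.50, both near the floor. These 5 were chosen after their values were seen.

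The other clusters were small. Of 3 members in a second run of the same imprinted region, Mir337 read 6.88, 6.90 and 6.90, while Mir493 (8.96) and Mir673 (7.07) were identical on all arrays. Mir341 read 8.90, 8.50 and 8.48, lower in both SEMA3E media, and its neighbour Mir1188 read 8.27 on all arrays. On chromosome 8, Mir23a read 7.64, 7.71 and 7.50 and Mir27a read 6.81, 6.86 and 6.81, highest in the SEMA3E medium in each case. The next gene of that run, Mir24-2, read 6.24 on all arrays and falls below the limit.

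Since probes may read the transcript that holds a microRNA, each placed member was set beside the gene around it. Of the 119 placed members, 60 lie on the same strand within another gene, in 61 pairs with 59 different hosts, and 51 pairs have a protein-coding host. The host was measured in 50 pairs and reached the floor in 44. No host was 1.5-fold apart in any comparison, where 0.367% of all genes were in at least 1. With so small a share over all genes, none among 50 says little about hosts as a set. In SEMA3E against control, 44 of the 50 hosts were identical on both arrays and 23 of their microRNA genes were, where 79.5% of all genes were, and the furthest host difference was -0.098, for Srrm2, a splicing factor that holds Mir5125.

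Rnf130, the host of Mir340, read 10.77 on all 3 arrays. Cux1, a transcription factor gene around Mir721, read 7.85, and Robo2, the axon guidance receptor around Mir691, read 10.50, each on all arrays. Nudt4, around Mir3058, read 14.60, and Nup93, the nuclear pore gene around Mir138-2, read 13.57, again identical on all arrays. The 4 members that were 1.5-fold apart with SEMA3E and have a measured host differed while the host's own probe set did not. These members were picked for their difference, and 79.5% of all genes were identical in this comparison. The contrast therefore says little about a member and its host. Whether a member's probe set and its host's read the same RNA was not tested. Mir181b-2, Mir154 and Mir453, Mir341 and Mir1188 lie in non-coding hosts (Nr6a1os, Mirg and Rian) whose levels were not analysed here.

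**Figure D3:**
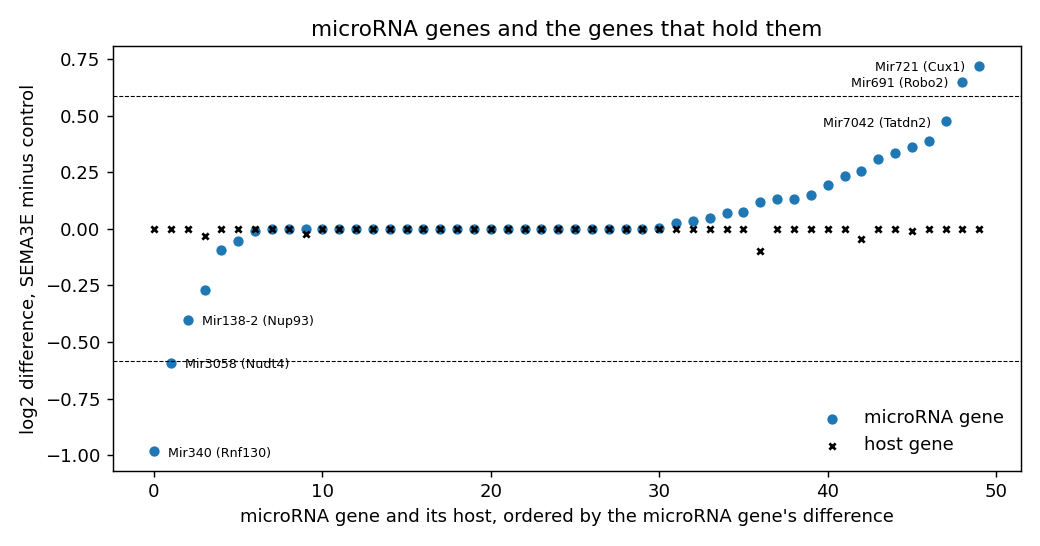
Log2 difference, SEMA3E minus control, for 50 microRNA genes (blue points) and the genes that hold them (black crosses), ordered along the horizontal axis by the microRNA gene's difference. Dashed lines mark 1.5-fold. The crosses stay at or near 0 while Mir340 lies at -0.98 and Mir721 at 0.72.

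Some members were read clearly where the host was not. Mir483 read 11.07, 11.22 and 10.84, while Igf2, the growth factor gene that holds it, read 5.02, below the floor. Mir511, a microRNA of macrophages, read 6.59 while its host Mrc1, the mannose receptor, read 5.24. Of 6 macrophage markers, 5 were above the floor, from 7.17 for Cx3cr1 to 11.19 for Lyz2, and Csf1r was under it at 4.97. Mir34b, described above, lies in Hoatz, which read 4.69. These pairs were chosen after their values were seen.

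Most of the 44 members named Mir297, Mir466, Mir467 and Mir669 that differed had their higher value in the SEMA3E medium. Against control, 27 were higher, 1 was lower and 16 were identical, with a median difference of 0.067, where 5.64% of all genes were higher and 14.8% lower, and the other 142 members had 43 higher, 28 lower and 71 identical. By their brightest probe sets, all 14 Mir466 genes were higher, by 0.05 to 0.59. The second probe set of Mir466d read 8.45 on all arrays, and that of Mir466f-3 was 0.45 higher with SEMA3E. That of Mir466f-1 read 11.24, 11.61 and 11.96, highest with SEMA3E + IgG. All 3 Mir297 genes were higher, as were 8 of 13 Mir669 genes, with Mir669h the exception at -0.04. The second probe set of Mir669h was 0.28 higher and that of Mir669m-2 was 0.15 higher. That of Mir669b was 0.82 higher but had a mean of 5.02, under the floor, and that of Mir669e read 4.51 on all arrays. Directions were recounted only for members that differ in the deposited values. The counts of 27 higher and 1 lower were the same under quantile normalization and loess. The other 142 members had 42 higher and 29 lower under quantile normalization and 43 and 27 under loess. Median centring, the larger offset and the floor setting could not change a direction here, so they are no check.

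On adding IgG, 3 of the 44 were higher, 21 lower and 20 identical, where 11.8% of all genes were higher and 11.1% lower, and 36 and 40 of the other 142 members. Against control, the SEMA3E + IgG medium had 19 higher, 3 lower and 22 identical, where 8.22% of all genes were higher and 13.3% lower, and 46 and 28 of the other members. Mir466f-3 read 11.85, 12.34 and 12.15. Mir466f-4 read 11.20, 11.63 and 11.42, and Mir297c read 7.97, 8.36 and 7.97. The SEMA3E medium was highest in each. Mir466j read 11.73, 12.01 and 11.86, and Mir466k read 11.24, 11.48 and 11.32, again highest with SEMA3E.

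These genes are not independent of one another. Mir467a-1, Mir467a-4, Mir467a-5, Mir467a-7 and Mir467a-8 had identical values on each array (7.57), as did Mir467a-3, Mir467a-6 and Mir467a-10 (7.85), and Mir466c-1 and Mir466c-2. By their brightest probe sets, 12 of the 14 Mir467 genes were identical between SEMA3E and control. The others were Mir467f, above, and Mir467h with 11.73, 11.85 and 11.78. The second probe set of Mir467e read 5.39, 6.09 and 7.23, with its control value under the floor. That of Mir467a-4 read 7.57 on all arrays. Only 7 of the 44 were matched in the RefSeq table. Over these 7 mature strands, a median of 68.2% of bases were G or U, against 54.5% over 202 strands of the other members.

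**Figure D4:**
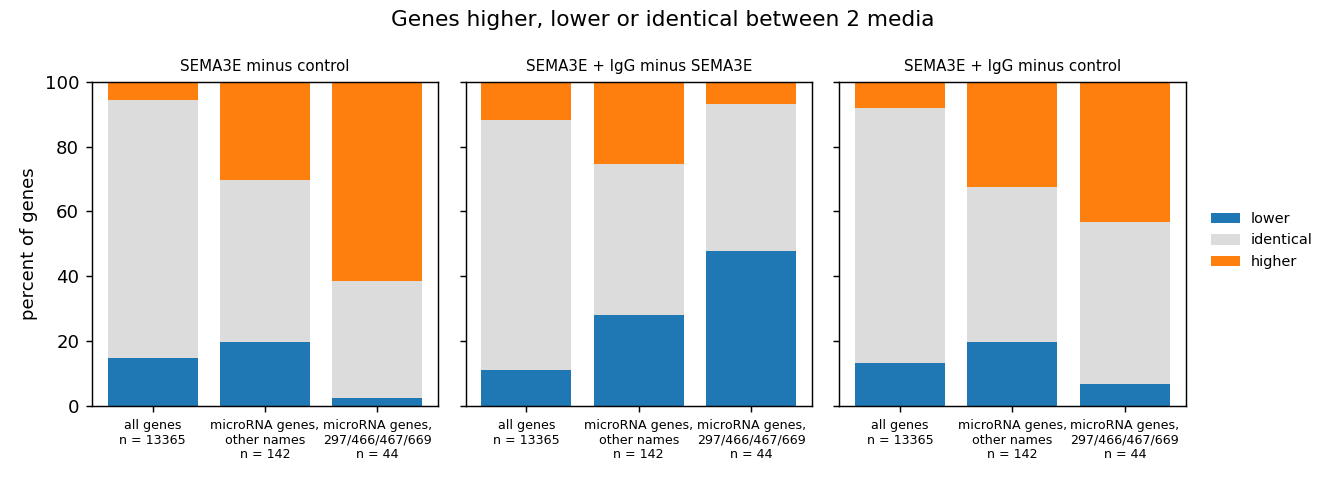
Percent of genes higher (orange), identical (grey) and lower (blue) between 2 arrays in the 3 comparisons. Bars stand for all 13365 genes at or above the limit, the 142 members of other names and the 44 members with Mir297, Mir466, Mir467 or Mir669 names, and in SEMA3E minus control 27 of the 44 are higher and 1 is lower.

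Repeated sequence was looked for directly in RefSeq's promoter windows, 32851 stretches reaching from 250 bases before to 50 bases after a gene start. A member counted as present in a window when its sequence shared a run of 20 bases with it on either strand. Of the 134 matched members, 23 (17.2%) had such a window and 8 (5.97%) had at least 10. Of 355 microRNA genes under the limit, 15 (4.23%) had a window and 4 (1.13%) had at least 10. Mir3473f had the most, with 93 windows, followed by Mir466k with 89. A shared run is a description of the letters and does not show what RNA the probes bound.

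The 12 brightest members were Mir703, Mir684-2, Mir684-1, Mir3473f, Mir3470b, Mir3473a, Mir669e, Mir6240, Mir692-1, Mir1191, Mir1954 and Mir325. Only for Mir703, Mir692-1 and Mir1954 is the brightest probe set named for the RefSeq chromosome. For 6 the name is that of another chromosome or unmapped, and 3 were not matched. Mir3470b and Mir325 have a dimmer second probe set named for their RefSeq chromosome. Mir3473f (93 windows), Mir1954 (23), Mir3473a (17) and Mir3470b (12) share runs with many promoter windows. Mir703 read 18.14, 18.14 and 18.30, and Mir684-1 read 17.85, 17.85 and 17.90.

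All 12 had a higher value with SEMA3E + IgG than with SEMA3E alone, by 0.05 to 0.59. Of all 17 members with a mean of at least 14, 15 were higher and 2 lower in that comparison, where 32.6% of the 854 genes of that brightness were higher and 19.6% lower. Mir1954 read 15.45, 15.36 and 15.80, and Mir3473a read 16.62, 16.65 and 16.95. Mir325 read 15.37, 15.24 and 15.54, and Mir669e read 15.68, 15.90 and 16.15. Mir3473f read 17.15, 16.93 and 17.10, Mir6240 read 15.93, 15.73 and 15.93, and Mir3470b read 17.00, 16.96 and 17.10. Mir692-1 read 15.57, 15.57 and 15.67.

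Where a gene had several probe sets they often disagreed. Of the 26 members with several probe sets, 56 in all, 15 had means at least 1 log2 unit apart and 4 had differences of opposite sign. Others had no gap between their means, namely Mir342, Mir3471-2, Mir467a-4, Mir3473b and Mir3472. The widest gap was 11.4, for Mir669e (15.91 and 4.51). Mir325 had 15.38 and 7.46, and Mir1954 had 15.54 and 10.74. The 6 probe sets of Mir684-1 lay within 0.05 of each other.

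MicroRNAs known for a tissue were mostly dim on this array. Of 55 genes listed for neurons, glia, muscle, blood, epithelium and other tissues, 35 were measured, 8 reached the floor and 6 are among the 186. The neuronal ones among the 186 were Mir138-1, Mir138-2 and Mir7-1 (7.05 on all arrays), the last within Hnrnpk. The other measured neuronal genes were all under the floor, with means from 3.82 to 5.25. They were Mir9-3, Mir128-1, Mir128-2, Mir132, Mir212 and Mir7-2. Mir183, Mir96 and Mir182, a cluster known for sensory organs and sensory ganglia, read 3.60, 4.84 and 3.60, all under the floor. Muscle genes ran from 3.32 to 4.32 and epithelial genes from 3.73 to 4.73. For a probe set in this range the array gives no clear level, whatever the cells hold.

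Of the glial genes, Mir204, which lies in Trpm3, read 7.47, 7.86 and 7.86, higher in both SEMA3E media. Mir338, a microRNA of myelinating glia within Aatk, read 6.85, 6.93 and 6.84. The other measured glial genes, Mir219a-2 (mean 4.81) and Mir211 (4.66), were under the floor. The 4 measured satellite glia markers did not share 1 order. Kcnj10, a potassium channel, read 8.64, 8.40 and 8.10, and Atp1b2, a sodium pump subunit, read 7.79, 7.52 and 7.52. Fabp7, a fatty acid binding protein, read 11.83, 11.96 and 11.83, and Apoe read 11.22 on all arrays. The part of glial content in the Mir204 values was not tested. Mir29b-1, known for targeting collagen genes, read 8.04, 8.17 and 8.23. Mir29a, under the limit, read 5.05, 5.59 and 5.94, and so had the same order. The other measured genes listed for smooth muscle and fibroblasts, Mir143 (mean 5.19) and Mir199a-1 (4.39), were under the floor. Mir155, a microRNA of activated immune cells, read 5.68 on all arrays, while Mir142 (mean 5.43) and Mir146 (4.42) were under the floor.

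The genes that make and use microRNAs were read beside the members. Of 35 listed, 29 were measured and 28 reached the floor, and none of these was 1.1-fold apart in any comparison. The share of all genes 1.1-fold apart was not counted, so this does not set the list apart from other genes. With SEMA3E, 3 were lower than control and 25 were identical, where 14.8% of all genes were lower and 79.5% identical. The 3 were Ddx17, an RNA helicase of the Drosha complex (-0.02), Srrt (-0.01) and Ago2, the Argonaute that cuts its targets (-0.01), named after their values were seen. Lin28a, which blocks let-7 processing, read 5.09, under the floor.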

How the data were processed

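RNA was taken from mouse dorsal root ganglion cultures in 3 media, with 1 array per medium. Per the labels' protocols, total RNA was isolated with TRIzol and the SV Total RNA Isolation System and labelled with biotin through the GeneChip WT Pico kit. The values are linear intensities deposited by the authors, and the submitters' processing notes name Affymetrix Expression Console. How it summarised and normalized the probes is not stated in those sources, nor is a build. Intensities ran from 6.12 to 496402.

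Differences are between values of log2(intensity + 1) on 2 arrays. Of 65956 probe sets, 30604 have a single symbol, 2146 several and 33206 none. The floor is 43.7 units, or 5.48 on the log2 scale. No p-value or error can be had from 1 array a group, and precision is limited by having so few arrays. Sequences, positions, hosts and clusters came from RefSeq tables (GRCm38.p6). Symbols are those of the platform annotation.

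The named genes are the members at least 1.5-fold apart in any comparison, the 12 brightest, the 3 genes on each side of the limit, those in seed families or clusters, and a tissue and a biogenesis list (genes 1.1-fold apart). Members and lists were chosen with earlier results of these data known. Alternatives were another offset, floor, limit, probe set and scaling. The counting was tested on simulated data. Python 3.11.15, numpy 2.4.6, pandas 2.3.3, statsmodels 0.14.6 and matplotlib 3.10.9 were used.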

Additional observations from a re-analysis of the deposited data

How the results depend on the processing

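With SEMA3E against control, 12 members reached 1.5-fold. It was 4 among the 84 members with a mean of 8 or more and 6 among the 126 members with no host found. Hosts were looked up only for the 119 members on a matching chromosome, so some of the 126 may lie inside another gene. Between SEMA3E + IgG and SEMA3E the count of members at 1.5-fold was 6, and 1 with a mean of 8 or more. Between SEMA3E + IgG and control it was 5. It was 10 among the 318 microRNA genes at or above the floor, 2 with a mean of 8 or more and 2 among the 126 members with no host found. It was 3 among the 119 members on a matching chromosome, an alternative chosen after seeing the data. These settings test other numbers of genes. The other 31 of 38 recomputed counts stayed within 1.5 times.

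Of 117 recomputed values for single genes, none changed sign and 7 crossed or left the limit of 1.5-fold: Mir154 (-0.53), Mir3058 (-0.51) and Mir539 (-0.57) with an offset of 16, Mir1191 (0.52) and Mir467f against control (0.58 with IgG) under quantile normalization, and Mir467f with its dimmer probe set (0.02 with SEMA3E, 0.00 with IgG). Centring and the floor setting left these single-gene values as they were, and a larger offset cannot change a sign. Only quantile normalization, loess and a dimmer probe set could have changed one. Every scaling moved the median of all genes by at most 0.0036. No array could be left out, since each medium has 1. No paired analysis was possible because each medium has 1 array. Dim probe sets near the floor limit what can be read, and the source of the signal was not tested.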

Other observations

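A further 281 microRNA genes carry a second name of the form mmu-mir in the annotation and so fell outside the choice of genes with a single symbol. Of these, 93 had a mean of at least 6.5, and 37 of the 93 (39.8%) were identical on all 3 arrays. With SEMA3E against control, 33 were higher, 6 lower and 54 identical, where 5.64% of all genes were higher and 14.8% lower. None was 1.5-fold apart, where 0.18% of all genes were. On adding IgG, 10 were higher, 39 lower and 44 identical, where 11.8% of all genes were higher and 11.1% lower. Mir7119 alone was 1.5-fold apart, where 0.15% of all genes were. Mir7119 read 10.66 in control, 11.00 with SEMA3E and 10.10 with SEMA3E + IgG, a difference of -0.90 in the last step. Against control, the SEMA3E + IgG medium had 15 higher, 27 lower and 51 identical, where 8.22% of all genes were higher and 13.3% lower, with none 1.5-fold apart, where 0.21% of all genes were. The comparisons share arrays and no test is possible.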
